A study of Homo sapiens with 9 samples.

Results

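The CpG island methylator phenotype panel comprises 7 protein-coding genes, CACNA1G, CDKN2A, CRABP1, IGF2, NEUROG1, RUNX3 and SOCS1. They were taken by name as the usual colorectal panel, by a rule that uses no RNA level, although earlier results of these data were known. They make up 7 of the 23284 gene symbols measured. RNA-Seq was performed on 9 cultures of HT-29, an established human colon cancer cell line grown as a monolayer. There were 3 replicate cultures in each of 3 groups, all treated for 5 days. The control group (0 µM) received the DMSO vehicle alone, and the other groups received 5-aza-deoxycytidine (5-Aza) at 5 µM or at 10 µM. All groups share 1 cell line, so the replicates measure the spread between dishes and not between tumors. The values are FPKM as deposited, that is, sequenced fragments scaled to the length of the transcript and to the size of the library. Levels of different genes in FPKM are therefore compared per length.

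The methylator phenotype is a property of some colorectal tumors in which the CpG islands of many promoters are methylated together. A CpG island is a stretch rich in cytosine followed by guanine, often at a gene's start, and dense methylation there is usually accompanied by a silent gene. Tumors are scored by whether the promoters of a small panel are methylated. 5-Aza is a cytidine analog that is built into DNA during replication, traps the DNA methyltransferases and leaves newly made DNA less methylated. Only RNA was measured here, and the methylation of these promoters was not analysed here.

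The panel genes have unrelated products. CDKN2A encodes the cell cycle inhibitor p16 and, from another first exon, p14ARF. IGF2 encodes an imprinted growth factor, and SOCS1 encodes an inhibitor of cytokine signaling through JAK kinases. CACNA1G encodes a T-type calcium channel subunit, RUNX3 encodes a transcription factor, NEUROG1 encodes a proneural transcription factor and CRABP1 encodes a retinoic acid binding protein. On GRCh37 the genes lie on 7 chromosomes, at chr17:48638076-48704835 (CACNA1G), chr9:21967751-21995300 (CDKN2A), chr15:78632695-78640567 (CRABP1), chr11:2150342-2179621 (IGF2), chr5:134869972-134871654 (NEUROG1), chr1:25226002-25291612 (RUNX3) and chr16:11348274-11350061 (SOCS1). CACNA1G and CRABP1 are on the plus strand and the other members are on the minus strand.

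RefSeq promoters (GRCh38.p14) were matched for 5 of the 7 members, with 7 entries because RUNX3 and CDKN2A each have a pair of starts. The 250 bases before the start are shown for SOCS1, a member with raised RNA at 5 µM, for NEUROG1, which was listed at 0 in every sample, and for both starts of RUNX3, which differ in CpG content. Capitals mark each CG, the dinucleotide that the methyltransferases modify. All 4 are written 5′ to 3′ on the minus strand, and they lie at chr16:11256205-11256454 (SOCS1), chr5:135535965-135536214 (NEUROG1), chr1:24965011-24965260 (RUNX3, upstream start) and chr1:24930277-24930526 (RUNX3, downstream start).
SOCS1: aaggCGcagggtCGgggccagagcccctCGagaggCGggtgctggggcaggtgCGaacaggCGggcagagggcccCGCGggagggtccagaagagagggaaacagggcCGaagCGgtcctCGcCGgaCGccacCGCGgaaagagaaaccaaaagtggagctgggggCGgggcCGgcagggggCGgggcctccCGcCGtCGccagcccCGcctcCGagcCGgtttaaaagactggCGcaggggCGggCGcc
NEUROG1: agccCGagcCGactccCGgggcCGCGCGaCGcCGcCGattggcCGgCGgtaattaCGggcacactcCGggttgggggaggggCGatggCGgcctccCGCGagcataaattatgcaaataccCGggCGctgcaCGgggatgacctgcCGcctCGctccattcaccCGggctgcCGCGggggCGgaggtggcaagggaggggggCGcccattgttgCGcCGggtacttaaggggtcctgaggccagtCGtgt
RUNX3 upstream start: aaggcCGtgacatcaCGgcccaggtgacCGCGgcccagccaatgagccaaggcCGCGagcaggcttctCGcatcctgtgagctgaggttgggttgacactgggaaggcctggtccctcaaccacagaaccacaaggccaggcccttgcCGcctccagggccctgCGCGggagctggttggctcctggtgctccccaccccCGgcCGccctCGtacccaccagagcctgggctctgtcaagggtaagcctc
RUNX3 downstream start: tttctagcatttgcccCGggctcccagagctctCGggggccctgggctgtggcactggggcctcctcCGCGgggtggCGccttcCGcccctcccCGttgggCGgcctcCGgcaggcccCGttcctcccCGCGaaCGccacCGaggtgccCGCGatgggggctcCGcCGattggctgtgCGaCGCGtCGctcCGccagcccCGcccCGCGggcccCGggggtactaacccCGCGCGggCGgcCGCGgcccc

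These stretches held 27 CG in SOCS1, 30 in NEUROG1, 13 at the upstream start of RUNX3 and 33 at its downstream start. The CDKN2A starts held 24 (chr9:21995325-21995574) and 20 (chr9:21974858-21975107), and CRABP1 held 18 (chr15:78340103-78340352). The motif searched was CG, which reads the same on both strands. Over 35116 RefSeq promoters of the same length the median was 11, with quartiles of 3 and 23. At least as many CG as in the downstream RUNX3 start were found in 8.1% of all promoters, against 12.4% for NEUROG1, 17.7% for SOCS1 and 46.6% for the upstream RUNX3 start. NEUROG1, at 0 throughout, and SOCS1, which was expressed in every sample, differed by 3 CG. No promoter was matched for IGF2 and CACNA1G, and whether CG content differs between silent and expressed members was not tested.

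**Figure D1:**
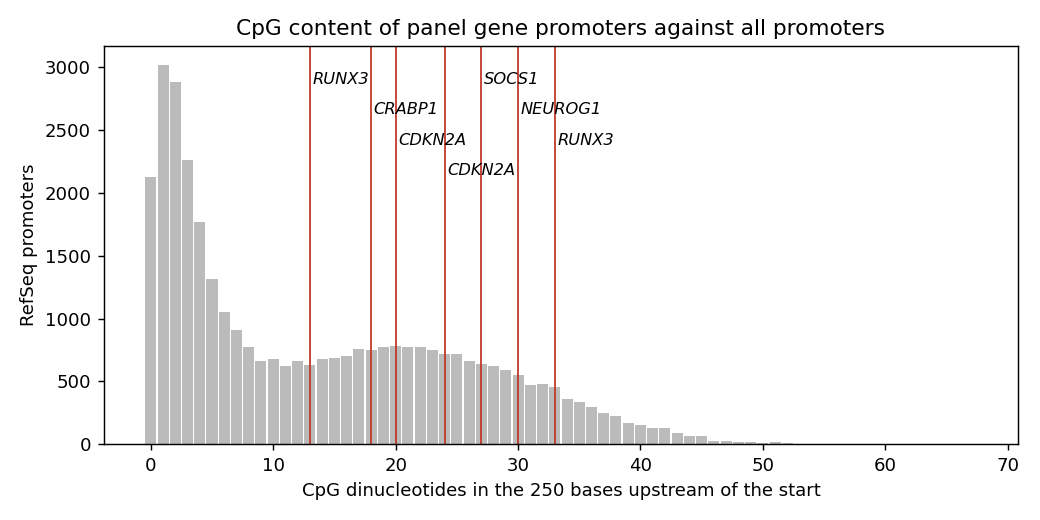
Number of CG dinucleotides in the 250 bases before the start (x axis) against the number of RefSeq promoters (y axis, grey bars), with red lines at the 7 entries of the panel members. All 7 lines lie above the median of 11, from 13 (upstream start of RUNX3) to 33 (its downstream start).

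In the control cells the panel spanned the range from strongly expressed to undetected. CDKN2A was highest, with 654431, 651725 and 518831 FPKM, up to the 91.2nd percentile of the symbols above 0 in a library. IGF2 followed with 326114, 381976 and 400210 FPKM. SOCS1 was far lower, with 9125, 3022 and 7122 FPKM. CACNA1G had 822, 999 and 1493 FPKM, and RUNX3 was listed at 0 in replicates 1 and 2 and had 616 FPKM in replicate 3. CRABP1 and NEUROG1 were listed at 0 in all 9 samples, at every concentration, so no comparison could be made for them. The replicates of CDKN2A, IGF2, SOCS1, CACNA1G and RUNX3 did not overlap between neighbors in this order, while RUNX3 shared the value 0 with CRABP1 and NEUROG1 in 2 of 3 controls. In the treated cells the top positions were exchanged, IGF2 being above CDKN2A in every sample.

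The first comparison, 5 µM against 0 µM, asks which genes respond to the drug. In all, 3 members rose, IGF2, SOCS1 and CACNA1G, and none fell (limma, and 0 also at an unadjusted p under 0.05 past the fold threshold). The other tested members, CDKN2A and RUNX3, did not pass both criteria. A call required an adjusted p of at most 0.05 (limma, Benjamini-Hochberg over all genes tested) and a log2(FPKM + 1) difference above 1 or below -1. Of all 20051 genes tested, 14.1% were called higher and 2.17% lower in this comparison. The panel's 3 of 5 tested members, or 3 of 7 in all, are read against that share. In bulk RNA, fewer cells expressing a gene and less RNA per cell cannot be told apart. The median log2 difference was 1.41 over the 5 tested members and 0.14 over all genes tested.

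IGF2 had the tightest replicates. It measured 985800, 936334 and 1021480 FPKM at 5 µM and 654716, 756571 and 603435 FPKM at 10 µM. All samples at 5 µM were above all at 10 µM, and these were above all controls. The control mean of 369433 ± 38608 FPKM compared with 981205 ± 42759 at 5 µM and 671574 ± 77947 at 10 µM (SD, n = 3). At 5 µM IGF2 rose 2.66-fold over the control, a log2 difference of 1.41 (SE 0.09, 95% interval 1.19 to 1.64, adjusted p = 0.000263 by limma). It moved from between the 80.8th and 86.6th percentile of expressed symbols to between the 95.7th and 96.4th. At 10 µM the mean was 1.82 times the control, a log2 difference of 0.86 (SE 0.15, 95% interval 0.52 to 1.21, adjusted p = 0.0148 by limma), which passed the p threshold and not the fold threshold. The exact permutation p was 0.1 in each comparison, the smallest that 3 against 3 allows. IGF2 exons overlap those of INS-IGF2 on the same strand and of an antisense transcript, and the counting was not stated to use strand. The antisense gene IGF2-AS1 averaged 131 FPKM at 0 µM, 5476 at 5 µM and 2783 at 10 µM, a small part of the IGF2 level in each group.

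SOCS1 had the largest fold difference among the members above 0 in every sample. It measured 29399, 18630 and 23935 FPKM at 5 µM and 11966, 19689 and 13854 FPKM at 10 µM. Every treated sample exceeded every control, and the samples at 5 and 10 µM overlapped. Values at low genes step in whole fragments, and SOCS1 corresponded to 12, 6 and 20 steps in the controls, 93, 56 and 81 at 5 µM, and 20, 52 and 31 at 10 µM. Its control level thus rested on few fragments. From 6423 ± 3111 FPKM in the control the mean went to 23988 ± 5385 at 5 µM (SD, n = 3), and SOCS1 rose 3.73-fold, a log2 difference of 2.02 (SE 0.44, 95% interval 0.96 to 3.08, adjusted p = 0.0132 by limma). Without 5 µM replicate 1 or without 5 µM replicate 3 the adjusted p was 0.0600 and 0.0569 by limma. At 10 µM SOCS1 averaged 15170 ± 4026 FPKM (SD, n = 3), 2.36 times the control, with a log2 difference of 1.35 (SE 0.46, 95% interval 0.27 to 2.44, adjusted p = 0.0848 by limma), which was not called.

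CACNA1G remained a low-expressed gene at every concentration. It measured 2340, 2666 and 3220 FPKM at 5 µM and 1424, 701 and 2105 FPKM at 10 µM. Samples at 5 µM lay above all others, whereas the 10 µM samples lay on either side of the control mean. Mean CACNA1G was 1105 ± 348 FPKM in the controls, 2742 ± 445 at 5 µM and 1410 ± 702 at 10 µM (SD, n = 3). The estimated number of fragments was between 8.2 and 31.8 in the controls and between 56.1 and 82.6 at 5 µM. CACNA1G rose 2.48-fold at 5 µM, a log2 difference of 1.34 (SE 0.41, 95% interval 0.36 to 2.33, adjusted p = 0.0415 by limma). This call was close to the threshold: leaving out control replicate 1 or 2, or any 5 µM replicate, gave adjusted p-values from 0.0703 to 0.114 by limma. At 10 µM the log2 difference from the control was 0.26 (SE 0.66, 95% interval -1.28 to 1.79, adjusted p = 0.795 by limma).

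**Figure D2:**
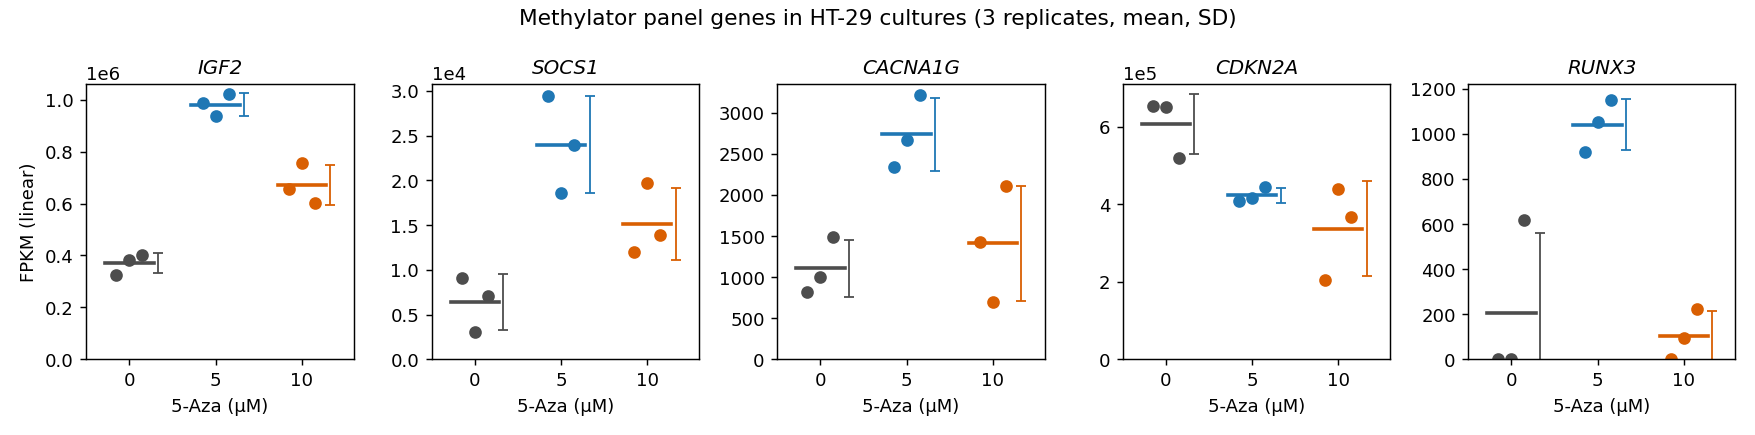
FPKM on linear axes (y, a separate scale for each gene) at 0, 5 and 10 µM 5-Aza (x) for the 5 members above 0 in any sample, with points for the 3 replicates, lines at the means and bars for the SD. IGF2, SOCS1 and CACNA1G are highest at 5 µM, CDKN2A is highest in the controls, and RUNX3 is above 0 in 1 of 3 controls and in 2 of 3 samples at 10 µM.

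CDKN2A was the member with the highest baseline and the only tested member with a lower mean at both concentrations. It measured 409706, 415575 and 445931 FPKM at 5 µM and 203619, 440864 and 368462 FPKM at 10 µM. All treated samples were below all controls. Mean CDKN2A was 608329 ± 77519 FPKM in the controls, 423737 ± 19443 at 5 µM and 337648 ± 121587 at 10 µM (SD, n = 3). At 5 µM the mean was 0.697 times the control, a log2 difference of -0.51 (SE 0.11, 95% interval -0.77 to -0.26, adjusted p = 0.0110 by limma), within the fold threshold and therefore not called. With each library scaled to the same FPKM total, this difference was -0.23 (adjusted p = 0.0603 by limma). At 10 µM it was -0.91 (SE 0.28, 95% interval -1.58 to -0.25, adjusted p = 0.0676 by limma). One value is given per gene, so p16 and p14ARF transcripts cannot be told apart. Exons of CDKN2A also overlap the antisense CDKN2B-AS1, which had between 11474 and 21038 FPKM over the 9 samples.

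RUNX3 was detected in every sample at 5 µM, at 921, 1051 and 1148 FPKM. At 10 µM it was listed at 0 in replicate 1 and had 93.6 and 221 FPKM in replicates 2 and 3. The 5 µM samples lay above all others, while the controls and the 10 µM samples overlapped. After scaling each library by its step, RUNX3 was expressed in multiples of its lowest value above 0, that of 10 µM replicate 2. Control replicate 3 held 7.0, the 5 µM samples held 11.8, 12.8 and 15.7, and the 10 µM samples held 0, 1.0 and 2.0. The multiples at 5 µM were not whole numbers. All of the baseline signal was carried by 1 control library. The log2 difference of 6.93 at 5 µM (SE 2.58, 95% interval 0.67 to 13.18, adjusted p = 0.0779 by limma) was not called. Its size depended on the value added before the logarithm, being 0.80 with 1000 in place of 1 (adjusted p = 0.0228 by limma, below the fold threshold). Without control replicate 3 the difference was called (10.02, adjusted p = 0.0017 by limma), with all remaining controls at 0.

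The second comparison, 10 µM against 5 µM, asks what a higher concentration adds. No member was called in either direction by limma, where 0.129% of 20085 genes were called higher and 4.82% lower. At an unadjusted p under 0.05, 0 members were higher and 1 (RUNX3) was lower past the fold threshold, against 82 and 2122 genes over the whole table. The log2 differences of the members were -0.55 for IGF2 (SE 0.15, 95% interval -0.90 to -0.21, adjusted p = 0.0763 by limma), -0.67 for SOCS1 (SE 0.27, adjusted p = 0.189 by limma), -1.09 for CACNA1G (SE 0.53, adjusted p = 0.245 by limma), -0.40 for CDKN2A (SE 0.28, adjusted p = 0.398 by limma) and -5.23 for RUNX3 (SE 1.98, adjusted p = 0.167 by limma). The replicates of IGF2, CACNA1G and RUNX3 did not overlap between the concentrations. The share of all genes separated in this way was not counted. All 5 means were below those at 5 µM. Most genes shared this sign: the difference was positive for 24.4% of all genes tested, and its median was -0.24 over the 16239 genes above 0 in all 6 samples.

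In the comparison of 10 µM with 0 µM no member was called, against 4.07% of 18928 genes called higher and 3.4% called lower. These counts over all genes, 771 higher and 644 lower, depended on single libraries, and ranged from 337 (without 10 µM replicate 3) to 819 higher and from 165 (without control replicate 2) to 1500 lower (without 10 µM replicate 2). At an unadjusted p under 0.05, 1 member (SOCS1) was higher past the fold threshold and 0 lower, against 1336 and 838 genes over the whole table. Over 15300 genes detected in all 6 libraries the log2 difference had a median of -0.23. When libraries were scaled by the median of ratios, which removes that shift, IGF2 (log2 difference 1.10, adjusted p = 0.00317 by limma) and SOCS1 (1.59, adjusted p = 0.0460 by limma) were called higher. Both were also called with libraries scaled to the same total, at 1.24 and 1.73. The 3 comparisons share samples, the 5 µM and the control groups each entering 2 of them, and are not independent of one another.

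**Figure D3:**
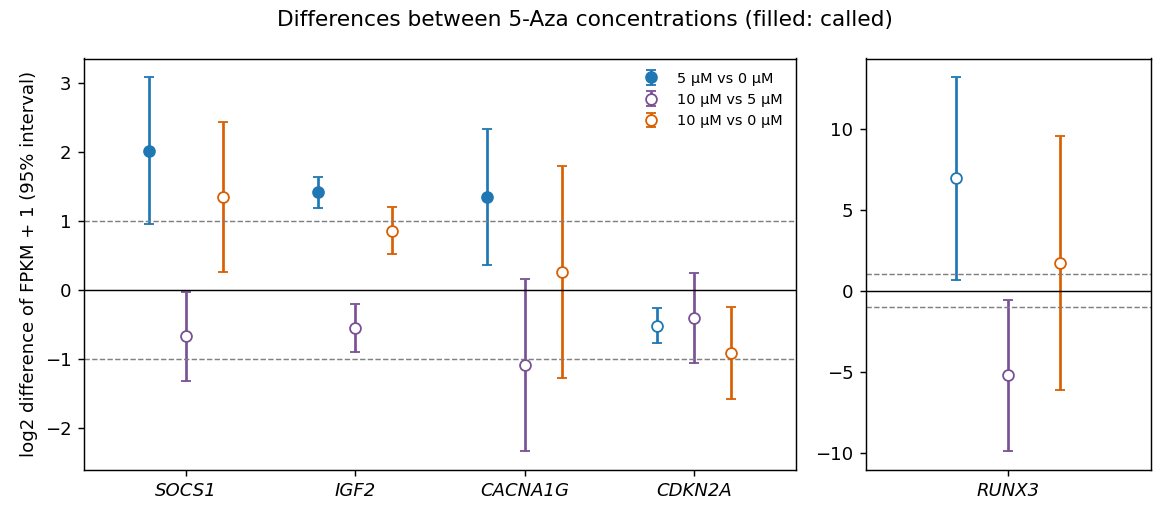
Log2(FPKM + 1) differences (axis in log2 units) with 95% intervals for the 5 tested members, RUNX3 on a separate and wider scale, with 5 against 0 µM in blue, 10 against 5 µM in purple and 10 against 0 µM in orange. Filled symbols mark called differences, dashed lines mark 1 and -1. SOCS1 (2.02), IGF2 (1.41) and CACNA1G (1.34) are filled in blue, and the RUNX3 intervals are the widest.

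Genes that work beside each member were then described, from lists drawn up by function. Their counts of calls are read against the shares over all genes given above, 14.1% higher and 2.17% lower at 5 µM. H19, the imprinted noncoding RNA next to IGF2, was close to absent from the control cells. It measured 728, 1446 and 1534 FPKM in the controls, 427705, 431309 and 438268 at 5 µM, and 55553, 90422 and 59458 at 10 µM. Control levels rested on an estimated 0.9 to 4.2 fragments, so the log2 difference of 8.52 at 5 µM (SE 0.30, adjusted p = 9.14e-05 by limma) is imprecise at its lower end. H19 fell from 5 to 10 µM by 2.69 on the log2 scale (adjusted p = 0.00197 by limma). Of 15 IGF system genes, 5 rose and none fell at 5 µM, 3 fell between 5 and 10 µM, and 2 rose at 10 µM against the control. The shares over all genes in the last 2 comparisons were 4.82% lower and 4.07% higher.

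The secreted IGF binding proteins, which hold the growth factor outside the cell, accounted for 3 of the 5 genes that rose. Not called at 5 µM were IGFBP2 (log2 difference 0.58), IGFBP4 (0.05) and IGFBP6 (0.41), which were above 0 in every control. IGFBP3 was listed at 0 in the 3 controls and had 19149, 20290 and 18146 FPKM at 5 µM, or 145, 146 and 147 whole steps (adjusted p = 0.000141 by limma). At 10 µM it was again listed at 0 in 2 of 3 samples. IGFBP1 averaged 517 FPKM in the controls, 134303 at 5 µM and 27530 at 10 µM, and IGFBP5, listed at 0 in the controls, averaged 2451 at 5 µM and 316 at 10 µM. IGF2BP1, an RNA-binding protein that takes IGF2 mRNA as a target, was the fifth. The receptors were not called: the log2 difference at 5 µM was -0.41 for IGF1R (adjusted p = 0.0374 by limma) and 0.08 for IGF2R (adjusted p = 0.547 by limma). INS, the insulin gene next to IGF2, was listed at 0 in the 3 controls.

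Of 15 genes of the SOCS family and the JAK-STAT pathway, 4 rose and none fell at 5 µM, beside 14.1% and 2.17% of all genes. SOCS3, the inhibitor closest in action to SOCS1, had 2419, 3405 and 1416 FPKM in the controls, 12698, 16009 and 14102 at 5 µM and 5711, 8131 and 4799 at 10 µM. It rose by a log2 difference of 2.65 at 5 µM (SE 0.37, adjusted p = 0.00229 by limma). SOCS2, another member of the family, rose by 1.51 (adjusted p = 0.00627 by limma). JAK3 rose by 2.13 at 5 µM and by 1.59 at 10 µM against the control. It was the only gene of this list called in the latter comparison, where 4.07% of all genes were called higher. SOCS2 and SOCS3 were called there as well with either scaling. CISH (-0.49) and the kinase JAK2 (-0.08) were not called at 5 µM. The list's median log2 difference at 5 µM was -0.05.

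Of 14 genes of the p16 locus and the RB pathway, through which p16 holds cells before S phase, 4 rose and none fell at 5 µM (14.1% and 2.17% over all genes). CDKN2B, the neighbor of CDKN2A that encodes p15, had 182679, 174376 and 164225 FPKM in the controls and 329955, 362616 and 397394 at 5 µM. It rose by 1.06 (SE 0.09, adjusted p = 0.000464 by limma), whereas CDKN2A in the same samples was lower than in the controls. At 10 µM CDKN2B averaged 187464 ± 45327 FPKM (SD, n = 3) against 173760 ± 9242 in the controls. E2F1, the factor released from RB when cells enter S phase, rose by 1.74 at 5 µM (SE 0.17, adjusted p = 0.000685 by limma) and by 2.08 at 10 µM (SE 0.20, adjusted p = 0.00327 by limma). The RB relative RBL1 rose by 2.13 and 2.20 in the same comparisons, and E2F2 rose by 2.06 at 5 µM. Of the kinases that p16 inhibits, CDK4 had a difference of -0.17 at 5 µM (adjusted p = 0.201 by limma), and CDK6 fell at 10 µM against the control by 1.10 (adjusted p = 0.0279 by limma), a call that was lost with either scaling. MTAP, on the other side of CDKN2A, differed by -0.53 at 5 µM and CDKN2B-AS1 by 0.36, neither of them called.

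The calcium channel list held the 9 other pore-forming subunits of the voltage-gated family, of which 4 rose and none fell at 5 µM, against 14.1% and 2.17% of all genes. The other T-type subunits were both among them. CACNA1H measured 5336, 4305 and 3090 FPKM in the controls, 12704, 9888 and 14326 at 5 µM and 5420, 8792 and 3820 at 10 µM, a log2 difference of 1.55 at 5 µM (SE 0.29, adjusted p = 0.00724 by limma). CACNA1I rose by 2.34 from a control mean of 285 FPKM (SE 0.52, adjusted p = 0.0147 by limma), a call lost with 1000 added before the logarithm. CACNA1A and CACNA1B, of the P/Q and N types, rose by 1.71 and 2.62. None of the 9 was called by limma between 5 and 10 µM or between 10 and 0 µM, where 3 were lower and 0 differed, respectively, at an unadjusted p under 0.05 past the fold threshold. Over the whole table, 82 genes were higher and 2122 lower by that measure at 10 against 5 µM.

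Of 16 tested genes that carry, make, degrade or respond to retinoic acid, 4 rose and 2 fell at 5 µM, where 14.1% and 2.17% of all genes did. CRABP2, the relative of CRABP1, was among the most abundant genes named here, with a control mean of 2746770 ± 248081 FPKM and 1440920 ± 106682 at 5 µM (SD, n = 3), a log2 difference of -0.93 (adjusted p = 0.00103 by limma) that did not pass the fold threshold. RBP4, the retinol carrier of the blood, had 412357, 505977 and 435632 FPKM in the controls, 1314690, 1290290 and 1277360 at 5 µM and 537405, 780420 and 577969 at 10 µM. At 5 µM it rose by 1.53 (adjusted p = 0.000202 by limma), and all 3 samples lay above all others. ALDH1A3 rose by 1.65 at 5 µM, and ALDH1A2, a retinaldehyde dehydrogenase listed at 0 in the controls, averaged 2660 FPKM. STRA6, the retinol transporter, fell by 1.11 and DHRS3, a retinaldehyde reductase, fell by 1.25 at 5 µM, both calls being lost when libraries were scaled to the same total. At 10 µM against the control 1 gene rose and 3 fell, where 4.07% and 3.4% of all genes did. With libraries scaled to the same total, none of the 3 was called lower.

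NEUROG1 belongs to the proneural basic helix-loop-helix factors. In a list of these factors and of Notch effectors (HES1, HES5 and HEY1), 3 of 10 tested genes rose at 5 µM and none fell, compared with 14.1% and 2.17% of all genes. NEUROD1 was listed at 0 in the controls and rested on 6, 2 and 2 steps at 5 µM. ATOH1, the factor of the intestinal secretory lineage, rose by 1.17 at 5 µM (adjusted p = 0.0180 by limma). Of the close relatives of NEUROG1, NEUROG2 was listed at 0 in 8 of 9 samples, and NEUROG3 averaged 8110 ± 5230 FPKM in the controls and 3315 ± 394 at 5 µM (SD, n = 3, adjusted p = 0.187 by limma). HES1, a repressor downstream of Notch, fell at 10 µM against the control by 1.06 (adjusted p = 0.0169 by limma), a call lost with either scaling.

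In the RUNX list, with 3 genes tested, no gene was called in any comparison by limma. The count was 0 as well at an unadjusted p under 0.05 past the fold threshold. Over all genes, 14.1% were called higher and 2.17% lower at 5 µM, so 0 of 3 does not set this list apart. RUNX1 averaged 141190 FPKM in the controls, 103196 at 5 µM and 102876 at 10 µM, far above RUNX3 at each concentration. Its log2 difference at 5 µM was -0.46 (adjusted p = 0.00752 by limma), that of RUNX2 was -0.34 (adjusted p = 0.0601 by limma), and that of CBFB, the shared binding partner, was -0.01 (adjusted p = 0.959 by limma).

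**Figure D4:**
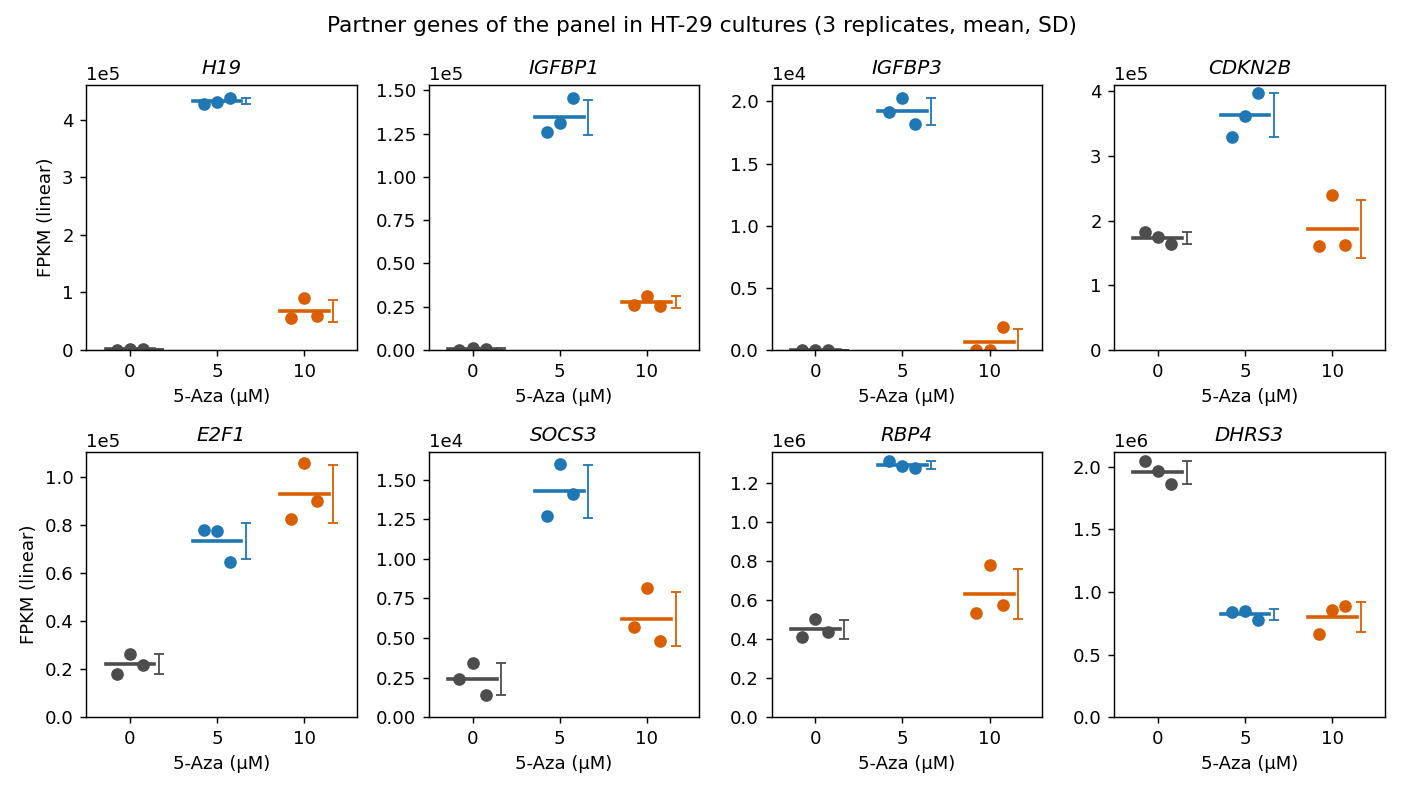
FPKM (y, a separate scale for each gene) at 0, 5 and 10 µM 5-Aza (x) for 8 genes that work beside the panel members, with points for the 3 replicates, lines at the means and bars for the SD. H19, IGFBP1, IGFBP3, CDKN2B, SOCS3 and RBP4 are highest at 5 µM, E2F1 is high at both concentrations, and DHRS3 is highest in the controls.

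Genes outside the panel that have served as methylator markers numbered 13, of which 11 were tested. In each comparison 1 of the 11 was called. Over all genes, 14.1% were called higher at 5 µM, 4.82% lower at 10 against 5 µM and 4.07% higher at 10 against 0 µM. The called marker was TIMP3, an inhibitor of matrix metalloproteinases. It had 289, 0 and 0 FPKM in the controls, 26083, 23843 and 35504 at 5 µM and 3071, 4175 and 2379 at 10 µM, rose at 5 µM (adjusted p = 0.00729 by limma) and at 10 µM against the control (adjusted p = 0.0407 by limma), and fell between 5 and 10 µM by 3.17 on the log2 scale (adjusted p = 0.00401 by limma). SLIT1, an axon guidance ligand, and HIC1, a transcriptional repressor, differed by 0.92 and 0.94 at 5 µM, just under the fold threshold, and both were called higher with libraries scaled to the same total. FSTL1, a secreted glycoprotein, had 420, 0 and 591 FPKM in the controls and 2709, 2759 and 3675 at 5 µM (adjusted p = 0.118 by limma), and was called with 1000 added before the logarithm (adjusted p = 0.00142 by limma).

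Over the 9 samples, the gene whose log2 level was most like that of a member was CLIP4 for IGF2 (Pearson r = 0.998), RHOC for CDKN2A (0.994), FXYD2 for SOCS1 (0.982), H3F3A for RUNX3 (0.972) and C7orf53 for CACNA1G (0.965). These are the highest of 15274 genes above 0 in all 9 samples and describe shared order among 3 groups of samples, which also differ in depth.

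Libraries differed in depth and in the number of genes detected. The files give no totals, and from the step size the libraries were estimated at 15269143 to 28543528 fragments in the controls, 26782364 to 31281471 at 5 µM and 11398131 to 24881451 at 10 µM. Between 16373 and 16958 symbols were above 0 in the controls, between 18761 and 18957 at 5 µM and between 17114 and 17592 at 10 µM. All 9 colonic epithelial markers (such as EPCAM, CDH1 and VIL1) were above 0 in every sample, with summed levels of 7.65e+07 to 9.16e+07 FPKM in the controls, 3.12e+07 to 3.56e+07 at 5 µM and 2.49e+07 to 4.32e+07 at 10 µM. Most of this sum came from KRT8 and KRT18, which fell at 5 µM by 1.65 and 1.64 on the log2 scale, whereas CDX1 and CEACAM5 rose by 2.14 and 1.59, and EPCAM (-0.23) and CDH1 (-0.06) were not called. The summed level of 6 fibroblast markers was 22549 to 32355 FPKM in the controls, 82215 to 88739 at 5 µM and 44805 to 52149 at 10 µM. DCN was listed at 0 in all 5 µM samples and COL1A2 in all 10 µM samples. The 4 endothelial markers summed to 1901 to 5031, 9843 to 12404 and 3267 to 3588 FPKM, with CDH5 and KDR at 0 in the controls. The 7 leukocyte markers summed to 8.57e+06 to 8.82e+06 FPKM in the controls, 3.89e+06 to 4.77e+06 at 5 µM and 4.53e+06 to 6.54e+06 at 10 µM. Nearly all of that was LYZ, which is also made by intestinal epithelium, and CD14 followed. The other 5 summed to 154 to 580, 1287 to 6234 and 300 to 1921 FPKM, with CD3D and CD3E at 0 in the controls. The number of genes detected and the levels of these marker lists thus differed between the groups in which the panel members were compared, and their part in the results was not tested.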

How the data were processed

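RNA-Seq was measured in 9 HT-29 cultures, 3 at each of 0, 5 and 10 µM 5-Aza, grouped by the sample labels. The authors sequenced paired-end libraries, used TopHat for alignment to hg19 and deposited 1 FPKM value per gene, computed by Cufflinks. The raw gene counts were not used here, so no count model was fitted. FPKM summed to between 3.69e+09 and 5.91e+09 per library. The authors' library term is not given in the sources used here, so only relative levels are interpreted. Precision at low genes is limited by counting error.

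Entries with the same symbol were summed. Genes with a largest FPKM of at least 10 in either group were tested on log2(FPKM + 1) with limma 3.58.1 (R 4.3.3, lmFit and eBayes with trend), 6 samples per comparison and no replicate block. Exact two-sided permutation tests were added for single members. At 5 against 0 µM each tested member had a p of 0.1 by this test, the smallest possible. At 10 against 5 µM the permutation p was higher for SOCS1 (0.2) and CDKN2A (0.3). At 10 against 0 µM it was higher for CACNA1G (0.8) and RUNX3. Depth was estimated from 12 microRNA genes of 110 nucleotides, where 46 of 46 values were whole multiples of 1 step (tolerance 0.01), and from transcript lengths of 17884 genes. In all, 77.3% of 1415 genes with a visible step lay within 1.5-fold of the length relation. Scripts were tested on simulated data. Python steps used scipy 1.17.1, numpy 2.4.6 and pandas 2.3.3. Positions are from the GRCh37 annotation, and promoters from RefSeq (GRCh38.p14).

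The panel members and gene lists were chosen with earlier results of these data known. All members are named, and of each list the called genes with the largest differences at 5 µM and the nearest relatives or partners of a member. Alternatives were other pseudocounts and filters, no fold threshold, limma's treat, all 9 samples in one fit, a replicate block, 2 scalings, the largest entry of repeated symbols, at least 10 estimated fragments, and each replicate left out. For the listed genes that are no members, a pseudocount of 1000, the replicate block and both scalings were chosen after seeing the data. Some results for listed genes are not reported here.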

Additional observations from a re-analysis of the deposited data

How the results depend on the processing

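The rise of IGF2 at 5 µM was called under all 18 alternatives, with log2 differences from 1.33 to 1.70. The number of members called higher at 5 µM was 3, and it was 1 with limma's treat against a fold change of 2 (IGF2) and 1 to 4 when single replicates were left out. The CACNA1G call was lost with a pseudocount of 1000 (0.84) and with all 9 samples in one fit (adjusted p = 0.0977 by limma). The number called lower at 5 µM was 0, and 1 without a fold threshold (CDKN2A). At 10 µM against 0 µM no member was called higher, against 1 without a fold threshold (IGF2), 1 with all 9 samples in one fit (SOCS1), 1 with a minimum of 10 estimated fragments (SOCS1), 2 with median-of-ratios scaling and 2 with total scaling. Leaving out single replicates gave 0 to 1 members lower in that comparison, the 1 being CDKN2A without 10 µM replicate 2 (log2 difference -1.14). The cause of these shifts was not tested. Uncalled differences turned sign for RUNX3 at 10 against 0 µM with a pseudocount of 1000 (-0.092) and for CACNA1G without 10 µM replicate 3 (-0.10), where leaving out single replicates gave -0.10 to 0.69.

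Same-numbered samples did not deviate together more than others. Correlations of deviations ran from -0.07 to 0.09 over 9 same-numbered pairs and from -0.16 to 0.10 over 18 pairs with different numbers. These values cannot show whether same-numbered cultures were handled together. With the replicate block 2 members were called higher at 5 µM, CACNA1G having an adjusted p of 0.0922 by limma. Of the listed genes named, the block also ended the calls of CACNA1A, CACNA1I and E2F2 at 5 µM, of JAK3 and IGFBP5 at 10 against 0 µM and of IGFBP5 at 10 against 5 µM. Over all genes, the share of calls that were higher was 86.6%, 2.6% and 54.5% for 5 against 0, 10 against 5 and 10 against 0 µM. It was 88.6%, 7.6% and 79.7% with median-of-ratios scaling and 95.5%, 4.2% and 89.3% with total scaling, under which the median log2 difference over genes above 0 was 0.25, -0.15 and 0.14. It was 54.5%, 5.2% and 35.7% without a fold threshold, 95.4%, 1.8% and 90.1% with treat, and 35.3% at 10 against 0 µM without 10 µM replicate 2. Counts over all genes at 10 against 5 µM ranged from 176 lower without 5 µM replicate 3 to 1873 without 10 µM replicate 2. SOCS1, CACNA1G and RUNX3 rest on few fragments in the controls, which limits the precision of their fold changes.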
